A study of Eonycteris spelaea and Mus musculus with 51 samples.

Results

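The 6 genes described here encode the contractile proteins of slow (type I) skeletal muscle fibres: the myosin heavy chain Myh7, the myosin light chains Myl2 and Myl3, and the troponin subunits Tnnt1, Tnnc1 and Tnni1. They were chosen by name, as 6 of the 40840 rows of the mouse count table and as 6 of the 30017 rows of the bat table. The bat rows carry the human identifiers ENSG00000092054 (MYH7), ENSG00000111245 (MYL2), ENSG00000160808 (MYL3), ENSG00000105048 (TNNT1), ENSG00000114854 (TNNC1) and ENSG00000159173 (TNNI1). The series holds 51 RNA-seq libraries of lung, blood and muscle from the cave nectar bat Eonycteris spelaea and from the mouse, and 18 of them are muscle. In each species 3 muscle libraries came from control animals sampled at baseline, 3 from animals sampled right after 1 h of heat shock given in vivo, and 3 from animals given 1 h of heat shock and then 4 h of recovery. The labels give the species, the tissue and the condition, but not which muscle was taken, nor strain, sex or age. Unheated animals were sampled at baseline alone, so heat and recovery cannot be told apart from handling or elapsed time. Nothing in the labels says outright that replicates came from separate animals, so p-values measure the spread between these samples.

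Skeletal muscle is a mosaic of slow and fast fibres, and each kind builds its sarcomere from its own versions of myosin and troponin. Myosin heavy chain is the motor, the light chains brace its lever arm, and troponin T, C and I anchor the switch, bind calcium and block contraction at rest. Most of these slow versions are shared with the heart, Myh7, Myl2, Myl3 and Tnnc1 being heart muscle genes as well, and the slow fibre content of a sample depends on which muscle, and which region of it, was taken. In bulk RNA, fewer slow fibres and less slow fibre RNA per fibre cannot be told apart.

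How well reads tell a member from its relatives differs between the genes, and coding sequence of GENCODE M21 (GRCm38, a different mouse build from the GRCm39 listed in the submitters' processing notes) was compared for each. Myh7 lies on chromosome 14, 3756 bases from Myh6, the other heart myosin heavy chain, and their coding sequences were identical at 91.6% of aligned bases. The longest identical run, coding bases 4240 to 4484 of Myh7, is shown because a read inside it fits both genes.
Myh7 and Myh6: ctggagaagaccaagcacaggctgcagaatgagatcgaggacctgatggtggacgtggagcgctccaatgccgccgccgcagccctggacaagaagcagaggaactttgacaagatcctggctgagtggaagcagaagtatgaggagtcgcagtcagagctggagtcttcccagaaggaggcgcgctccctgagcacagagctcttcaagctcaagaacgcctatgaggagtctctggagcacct
The 60-base window with the most differences is shown next, with the 27 differing bases in capitals.
Myh7: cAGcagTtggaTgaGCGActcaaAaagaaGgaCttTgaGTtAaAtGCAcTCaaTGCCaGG
Myh6: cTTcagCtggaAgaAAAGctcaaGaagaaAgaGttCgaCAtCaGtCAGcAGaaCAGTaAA
The troponin C pair, 68% identical over its aligned coding bases, is shown for contrast. Its 60-base window with the most differences is the first 60 coding bases, with the 32 bases that differ between the slow and the fast gene in capitals.
Tnnc1: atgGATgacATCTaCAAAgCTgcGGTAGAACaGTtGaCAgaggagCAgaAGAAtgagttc
Tnnc2: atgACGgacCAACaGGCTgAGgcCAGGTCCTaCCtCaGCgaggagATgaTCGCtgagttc
Of the 50-base stretches of the Myh7 transcript, 28.2% also occurred in another gene on either strand, with 22.2% in Myh6 on the same strand. On the opposite strand, Gm31251 held 4.64% and Mhrt 4.56%. Myl2 (chromosome 5), Myl3 (chromosome 9), Tnnt1 (chromosome 7), Tnnc1 (chromosome 14) and Tnni1 (chromosome 1) shared 0%. Slow and fast partners were 67.4% (Tnni1 and Tnni2) to 77.6% (Myh7 and Myh4) identical over their aligned coding bases.

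In mouse muscle the 6 genes spread widely among the libraries of a condition, above all after heat and recovery, and no condition stood apart. The defining genes of skeletal muscle were abundant, with Acta1 at 11693 to 25708 CPM and Ckm at 7844 to 18130 CPM. Levels are edgeR CPM, read counts divided by library size after correction by TMM factors, and 1 read was worth 0.0279 to 0.0387 CPM in these libraries. Myh7, the slow motor, stood at 72.7, 139 and 22.3 CPM in control libraries 1, 2 and 3, at 0.889, 42.2 and 631 CPM in heat libraries 1, 2 and 3, and at 733, 528 and 46.8 CPM in recovery libraries 1, 2 and 3. Heat 1 was thus the lowest of the 9 libraries and recovery 1 the highest, and the heat libraries lay on both sides of every control library. The heat 1 value rested on 27 reads and the recovery 1 value on 24855.

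**Figure D1:**
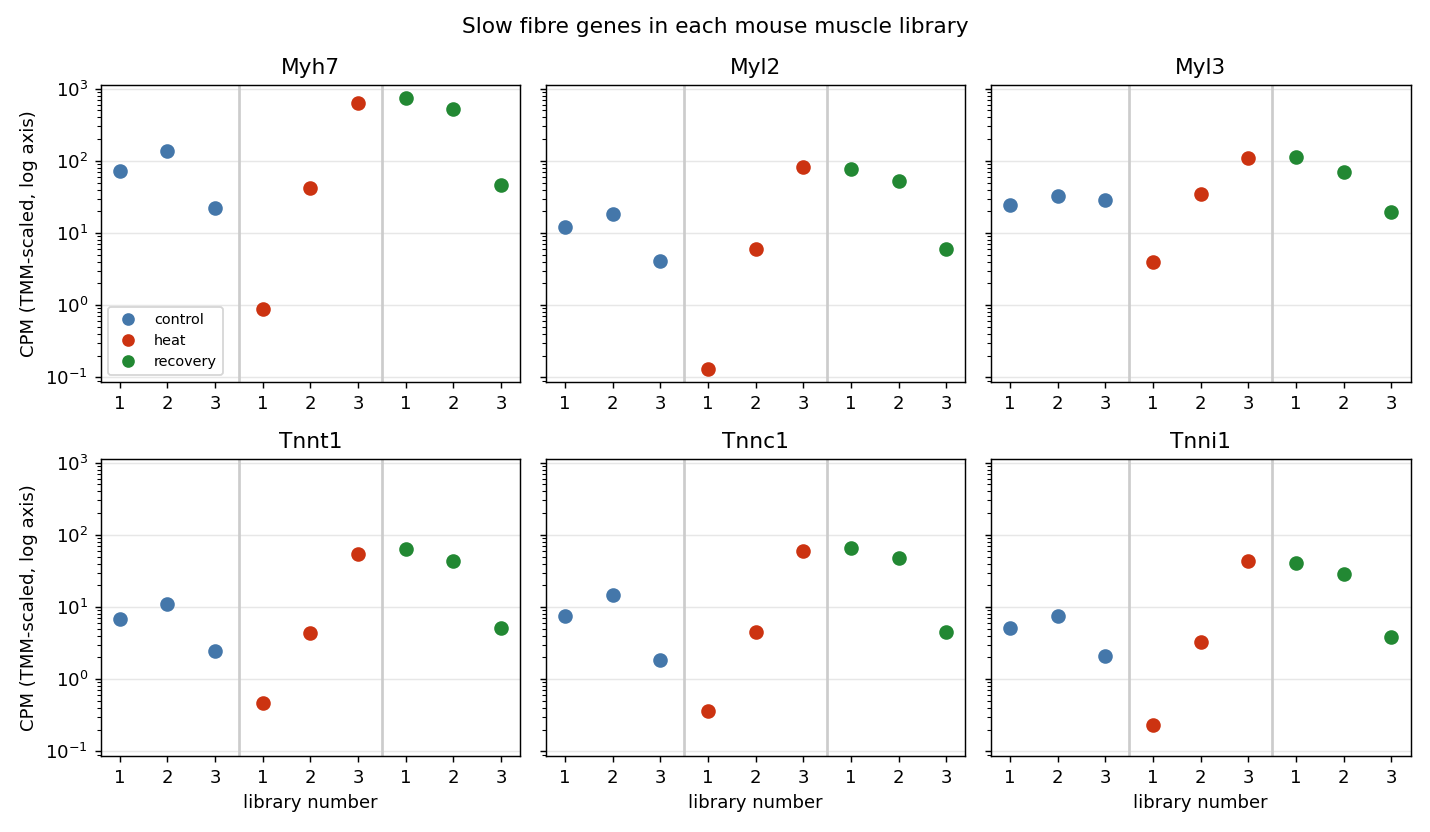
Level of each slow fibre gene in each mouse muscle library (x axis, library number within the condition; y axis, CPM on a log scale; 1 point per library, coloured by condition). Heat 1 is the lowest point for all 6 genes, and heat 3, recovery 1 and recovery 2 are the 3 highest.

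Myl2, the slow regulatory light chain, followed Myh7. It stood at 12.2, 18.2 and 4.05 CPM in control libraries, 0.132, 5.91 and 81.2 CPM in heat libraries and 76.6, 52.8 and 5.99 CPM in recovery libraries. Myl3, the slow essential light chain, stood at 24.6, 32.3 and 28.5 CPM in control, 3.95, 35.0 and 109 CPM in heat and 112, 69.9 and 19.7 CPM in recovery. Heat 1 was its lowest library, and recovery 1, heat 3 and recovery 2 were its highest, as for Myh7. The libraries between them ran in another order than for Myh7, with heat 2 above every control library. The range was narrower: the highest was 28.4 times the lowest, against 617 times for Myl2 and 825 times for Myh7.

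The 3 slow troponins repeated the pattern. Tnnt1, which ties troponin to tropomyosin, stood at 6.85, 11.2 and 2.49 CPM in control, 0.461, 4.31 and 55.2 CPM in heat and 63.8, 44.1 and 5.10 CPM in recovery. Tnnc1, the calcium sensor, stood at 7.51, 14.5 and 1.87 CPM in control, 0.362, 4.50 and 60.2 CPM in heat and 65.4, 48.2 and 4.44 CPM in recovery. Heat 1 was again the lowest library for both, and the 3 highest were again heat 3, recovery 1 and recovery 2.
Tnni1, the inhibitory subunit, stood at 5.10, 7.49 and 2.08 CPM in control, 0.230, 3.23 and 43.5 CPM in heat and 41.4, 29.0 and 3.88 CPM in recovery. Within the heat group the highest library exceeded the lowest 120-fold for Tnnt1, 166-fold for Tnnc1 and 189-fold for Tnni1, while within the control group the spread was 3.60-fold (Tnni1) to 7.75-fold (Tnnc1).

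Outside heat 1 the members kept similar proportions to each other, with Myl3 as the exception. Per kilobase of transcript, in the other 8 libraries, Tnnt1 stood at 48.9 to 67.7% of Myh7 within a library, Tnnc1 at 72.7 to 92.0% and Tnni1 at 29.2 to 50.5%. Myl2 stood at 94.2 to 171% of Myh7. Myl3 departed from this, at 88.1 to 852%, with a higher ratio in the libraries where Myh7 was low. In heat 1, where Myh7 had 27 reads, the ratios were 139% for Myl2, 2955% for Myl3 (120 reads), 314% for Tnnt1 (14 reads), 352% for Tnnc1 (11 reads) and 140% for Tnni1 (7 reads). By median level per kilobase the order was Myl3 (34.4 CPM per kb), Myl2 (18.4), Myh7 (11.7), Tnnc1 (10.4), Tnnt1 (6.67) and Tnni1 (4.43), and the ranges of all neighbours in this order overlap.

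Whether the slow genes differed right after heat was asked with edgeR's quasi-likelihood test over all 17746 genes tested in mouse muscle, with Benjamini-Hochberg adjustment. None of the 6 genes was called by edgeR at an adjusted p under 0.05, where 0.428% of all genes were called. DESeq2 called none of the 6 either, where it called 2607 of the 17746 genes. At an unadjusted p under 0.05 there were 0 of the 6, against 5318 of all 17746 genes. Fitted log2 changes were all positive, from 0.79 (Myl3) to 1.68 (Tnni1), with a median of 1.48 against -0.046 over all genes. The Myh7 change was 1.53 (SE 1.70, 95% interval -2.37 to 5.43; edgeR adjusted p = 0.551). In no member were the heat and control libraries apart, while 37.7% of all genes had groups that did not overlap. Without heat 3 all 6 changes turned negative, with a median of -1.63, so that 1 library sets the direction.

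Recovery was compared with the same control libraries. Again none of the 6 was called by edgeR (0.0676% of all genes were) or DESeq2 (114 of 17746 genes were). None was under 0.05 unadjusted (879 of 17746 genes were), and none had groups that did not overlap (9.52% of all genes). The log2 changes ran from 1.24 (Myl3) to 2.48 (Myh7, SE 1.75, 95% interval -1.54 to 6.51; edgeR adjusted p = 0.999), with a median of 2.32 against 0.000578 over all genes. Recovery against heat gave changes of 0.45 (Myl3) to 0.96 (Myh7), with a median of 0.757 against 0.0483. None of the 6 was called there by edgeR (0.468% of all genes) or DESeq2 (1211 of 17746 genes). None was under 0.05 unadjusted (3494 of 17746 genes were), and none had separate groups (26.4%). The intervals are wide enough to hold a several-fold change in either direction, and the median of recovery against heat was 3.95 without heat 3 and 0.168 without recovery 1. Without heat 3, 5 of the 6 were under 0.05 unadjusted for recovery against heat, as were 3619 of all 18436 genes tested. The smallest edgeR adjusted p of a member was 0.205.

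**Figure D2:**
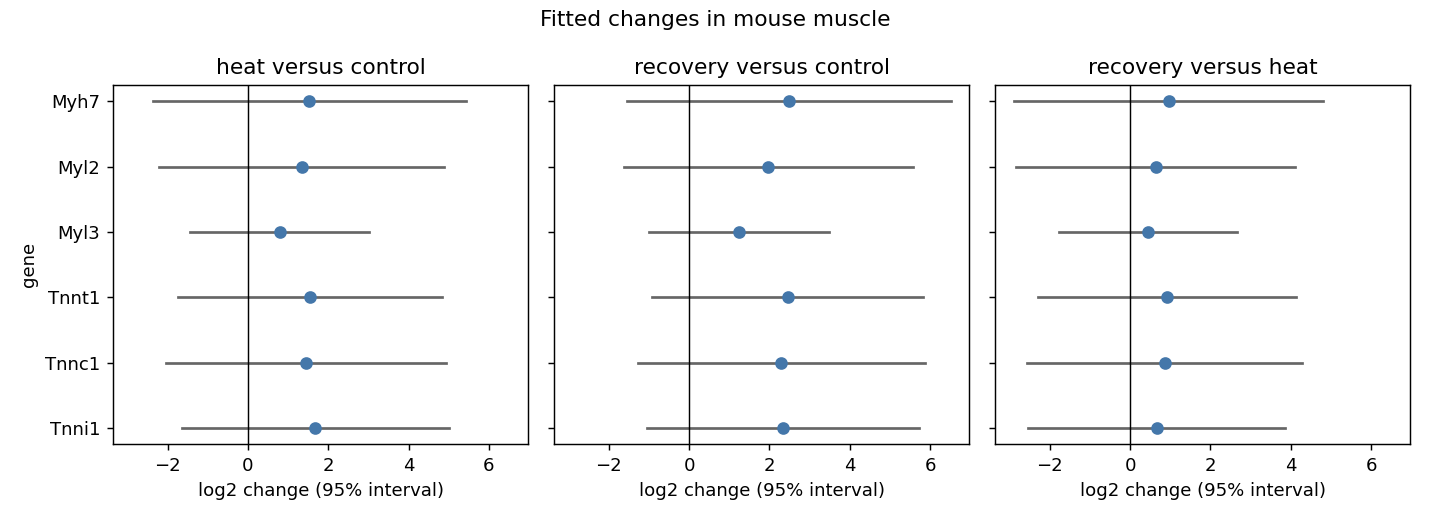
Fitted log2 change of each slow fibre gene in mouse muscle (points) with its 95% interval (lines), for heat against control, recovery against control and recovery against heat. Every interval includes 0, from Myh7 at heat (-2.37 to 5.43) to Tnni1 at recovery (-1.05 to 5.71).

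A share within a library does not depend on how libraries are scaled. Myh7 made up 0.215, 0.463 and 0.0468% of the reads per kilobase of the 4 adult myosin heavy chains (Myh7, Myh2, Myh1 and Myh4) in control libraries, 0.00151, 0.0740 and 1.26% in heat libraries and 2.28, 1.02 and 0.0850% in recovery libraries. Myh4, the heavy chain of the fastest fibres, held 81.2 to 96.1%. These muscle samples thus held mostly fast myosin message in all 9 libraries. The share was 0.242% ± 0.209 in control, 0.445% ± 0.707 in heat and 1.13% ± 1.10 in recovery (SD, n = 3 each, exact permutation p = 0.9 for heat and 0.3 for recovery against control, two-sided, where 0.1 is the smallest p that 3 against 3 allows).
The slow members of the 3 troponin pairs gave 0.560, 1.20 and 0.116% in control, 0.0174, 0.205 and 2.96% in heat and 4.78, 2.05 and 0.224% in recovery. Recovery exceeded control by 1.73 percentage points on average (exact permutation p = 0.3, two-sided), less than the SD of 2.29 among the recovery libraries. Without heat 3 the heat minus control difference changed sign for both shares, to -0.204 points for myosin and -0.514 points for troponin.

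**Figure D3:**
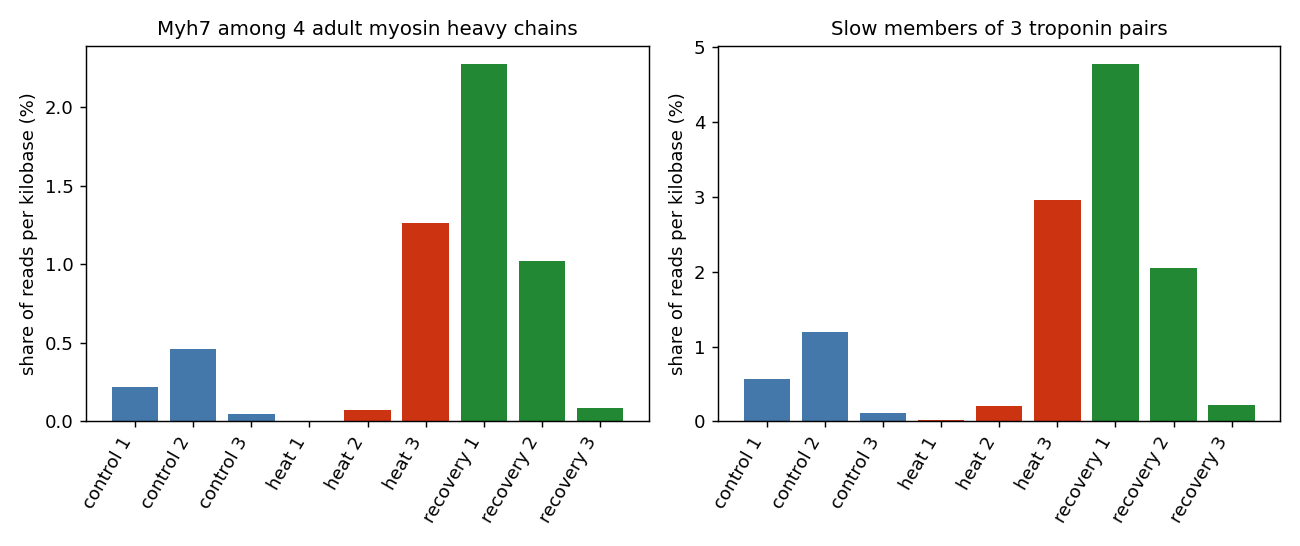
Slow share in each mouse muscle library, as a percent of reads per kilobase, for Myh7 among 4 adult myosin heavy chains (left) and for the slow members of 3 troponin pairs (right), bars coloured by condition. Recovery 1 is the tallest bar in both, at 2.28% and 4.78%, and heat 1 the shortest.

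Of 8 further slow fibre genes, 6 had the same 3 highest libraries as the 6 members (heat 3, recovery 1 and recovery 2), an order that 0.84% of all genes tested showed and that was picked from the members' values. Heat 1 was also the lowest library for 6 of the 8, and for 20.8% of all genes. This low was not particular to slow fibre genes. Heat 1 was lowest for 8 of 9 fibroblast and tendon markers, 5 of 6 adipocyte, 4 of 5 macrophage and 3 of 5 endothelial markers. It was lowest for 2 of 5 Schwann cell markers, and for 0 of 5 erythroid and 0 of 5 smooth muscle and pericyte markers. Pln, which restrains the slow calcium pump, spanned only 1.30 to 2.36 CPM, with recovery 1 lowest. Casq2, a calcium store protein, had its lowest level in control 1 (13.5 CPM) and stood at 18.8 CPM in recovery 1, below control 3 at 24.8 CPM. None of the 8 was called in any of the 3 comparisons by edgeR, with median log2 changes of 0.623 at heat and 0.762 at recovery. Atp2a2, the slow calcium pump, stood at 134, 170 and 78.4 CPM in control, 73.8, 100.1 and 371 CPM in heat and 498, 408 and 78.7 CPM in recovery. Csrp3, a Z-disc protein, ranged from 1.25 CPM in heat 1 to 189 CPM in recovery 2, and Tpm3, slow tropomyosin, from 15.6 CPM in heat 1 to 141 CPM in recovery 1.
Of the 8 fast partners, 1 had the same 3 highest libraries: Myh1, the heavy chain of intermediate fast fibres, at 4912 CPM in heat 3, 4095 CPM in recovery 1 and 3551 CPM in recovery 2, and lowest in heat 1 at 2076 CPM. Their summed level was 36760 to 58670 CPM in control, 61220 to 72490 CPM in heat and 38980 to 68850 CPM in recovery, and none was called by edgeR in any comparison. At heat, 3 of the 8 had groups that did not overlap, near the 37.7% of all genes. The sum is mostly Myh4. Myh2, the heavy chain of the slowest of the fast fibres, was also lowest in heat 1 and spanned 164 to 2296 CPM, highest in heat 3 and recovery 1, while Myh4 spanned 24760 to 53752 CPM. The list's median log2 change was 0.567 at heat and 0.35 at recovery. Of 14 regulators of the slow programme, which include the calcineurin target Rcan1 and the slow gene repressor Sox6, none was called either, with medians of 0.385 and 0.178. None of 10 genes of oxidative metabolism was called, with medians of 0.209 and 0.161. Heat shock genes, listed with earlier results of these data known, were higher in the heated groups. At heat 4 of 5 rose, where 0.428% of all genes were called in either direction, among them Hspa1b by 8.33 on the log2 scale (edgeR adjusted p = 0.0178). At recovery 3 of 5 rose, where 0.0676% of all genes were called in either direction.

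The genes whose profile across the 9 libraries lay nearest to the mean of the 6 were found by the root mean square difference of centred log2 CPM, among 10140 genes with a mean of at least 5 CPM. The nearest were Mhrt (0.337), Gm31251 (0.499), Csrp3 (0.671), Myom3 (0.771), an M-band protein, and Lmod2 (1.19), an actin filament protein, where a gene at a constant level would lie at 2.23. GENCODE M21 places Mhrt and Gm31251 on the strand opposite Myh7, with 484 and 523 exonic bases over Myh7 exons. Of their exonic bases, 1214 and 1248 in all, the larger share thus lies outside Myh7 exons. Counting its introns, however, 767 of the 1214 bases and all 1248 lie within the Myh7 gene. Because the strand setting of the counting is not stated, reads within the overlap cannot be told apart from those of Myh7.

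Heart muscle markers were checked because the heart shares 4 of the 6 genes. In mouse muscle the 10 markers summed to 8.45 to 10.5 CPM in control, 8.59 to 16.7 CPM in heat and 10.2 to 15.1 CPM in recovery. Of the 10, 6 never exceeded 1 CPM: Tnni3 reached at most 0.383 CPM, Nppa 0.196 CPM, Tnnt2 0.914 CPM, Nkx2-5 0.0329 CPM, Tbx20 0.0372 CPM and Nppb 0.0279 CPM. Myl7, an atrial light chain, was at 0 reads in the 3 control libraries, at 63, 4 and 92 reads in heat libraries and at 0, 2 and 1 reads in recovery libraries, so that heat and control did not overlap. It did not pass the low-count filter. Myl4 stood at 2.75 to 7.21 CPM and Ryr2 at 1.22 to 3.29 CPM. Myh6 ran from 0.494 CPM in heat 1 to 8.45 CPM in heat 3, as 0.998 to 4.57 reads per 100 Myh7 reads in the 8 libraries other than heat 1, and shares sequence with Myh7 as shown above.
Of 9 lists of other cell types, none had a called member. The 6 adipocyte markers summed to 2310 to 2568 CPM in control, 1875 to 2401 CPM in heat and 1839 to 2717 CPM in recovery. Most of each sum was Car3, at 1372 to 2441 CPM, which muscle also makes. The other 5 (Adipoq, Plin1, Cidec, Retn and Cfd) summed to 201.4 to 1071 CPM in control, 17.1 to 248 CPM in heat and 183 to 775 CPM in recovery. At heat their fitted log2 changes ran from -3.05 to -2.26. By edgeR 4 of the 5 were under 0.05 unadjusted, as were 5318 of all 17746 genes, and none was called. Groups that did not overlap were found for 3 of the 5, against 37.7% of all genes. Adipoq was lowest in heat 1, at 1.05 CPM, and reached 161 CPM in control 2. The 4 genes listed for muscle spindle and nerve summed to 61.0 to 81.1 CPM in control, 70.0 to 178 CPM in heat and 96.4 to 135 CPM in recovery. Of these, Myh15 reached at most 0.0387 CPM. The sum was thus Musk (18.7 to 115 CPM), Myh14 (25.0 to 50.7 CPM) and Chrne (8.19 to 16.8 CPM), and it does not measure spindles. The 9 fibroblast and tendon markers summed to 1630 to 3497 CPM in control, 1087 to 1468 CPM in heat and 1697 to 2441 CPM in recovery. Their part in the slow fibre values was not tested.

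**Figure D4:**
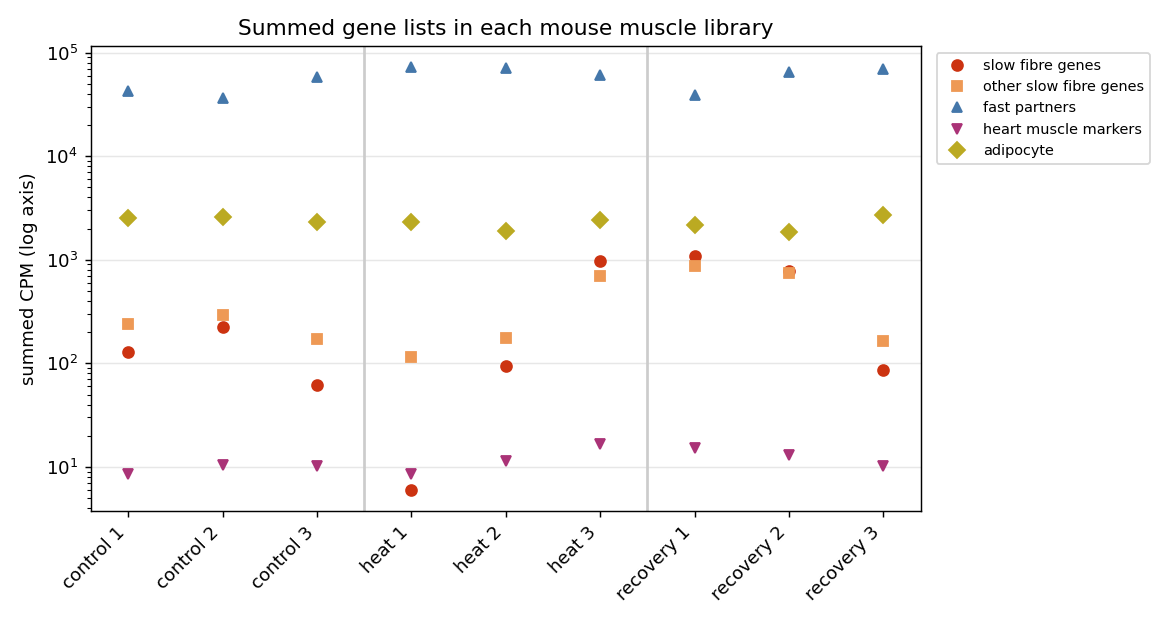
Summed CPM of 5 gene lists in each mouse muscle library (log axis, 1 point per list and library). The 6 slow fibre genes run from 6.02 CPM in heat 1 to 1092 CPM in recovery 1. The sum of the other slow fibre genes is mostly Atp2a2 and that of the fast partners mostly Myh4, which lies between 24760 and 53752 CPM, so the sums hide genes such as Pln and Myh1 that differ from their list, and the adipocyte sum is mostly Car3.

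In bat muscle the same 6 genes were at the edge of detection. The rows held 0 to 32 reads per library, out of 24.7 to 33.3 M. MYH7 was at 0, 19 and 9 reads in control libraries 1, 2 and 3, at 4, 16 and 3 reads in heat libraries and at 9, 14 and 2 reads in recovery libraries. The count of 0 allows a level of up to 0.0940 CPM (3 reads), for counting error only. TNNI1 was at 15, 9 and 17 reads in control, 5, 1 and 3 reads in heat and 9, 14 and 32 reads in recovery. Only these 2 and MYL2 and TNNC1 passed the filter on low counts, so 4 of the 6 were tested.
MYL3 (0 to 8 reads) and TNNT1 (2 to 10 reads) were not. None of the 4 was called by edgeR at heat (0.0376% of 15950 genes were), at recovery (2.67%) or between them (0.00627%). DESeq2 called none of the members to which it gave an adjusted p, 3 at recovery, 1 between them and 0 at heat. Over all 15950 genes DESeq2 called 1639 at recovery, 211 between them and 855 at heat. At an unadjusted p under 0.05 the count was 1 at heat, 0 at recovery and 1 between them, TNNI1 in both cases. Over all 15950 genes these counts were 2840, 3590 and 1670. With the replicate number as a block, 63 genes rather than 6 were called over all genes at heat, and TNNI1 had an adjusted p of 0.208 by edgeR.

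TNNI1 had control libraries all above the heat libraries, at 0.331 to 0.509 CPM against 0.0320 to 0.198 CPM. Its log2 change was -1.96 (SE 0.76, 95% interval -3.63 to -0.29; edgeR adjusted p = 0.213). Groups that did not overlap were found for 25.4% of all genes in that comparison. Recovery lay above heat, at 0.319 to 1.18 CPM, with a log2 change of 2.51 (edgeR adjusted p = 0.315), and 16.5% of all genes had separate groups there. TNNI1 passed the low-count filter through its control and recovery libraries, since its heat libraries held 5, 1 and 3 reads. In a fit of recovery and heat alone it did not pass. Its separation from heat is therefore only described, and no conclusion is drawn from it. At recovery against control 0 of the 4 had separate groups, against 26.4% of all genes. Of the bat rows, 758 carry mouse identifiers with a symbol, and none of 24 listed fast fibre and shared muscle genes is among them, so the bat muscle label was not checked against such markers.

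The bat change minus the mouse change was tested for the 4 genes kept by the low-count filter in both species, in a joint edgeR fit of 49 gene pairs. Bat minus mouse was -1.80 for Myh7, -2.42 for Myl2, -1.29 for Tnnc1 and -3.64 for Tnni1 at heat (SE 1.85 to 2.39), and the smallest edgeR adjusted p was 0.223. None of the 4 was called at heat (2.04% of the pairs), at recovery (0%) or between them (0%). At unadjusted p none was under 0.05, where 11, 2 and 4 of the 49 pairs were. With 49 pairs and few bat reads this says little about whether the species differ.

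**Figure D5:**
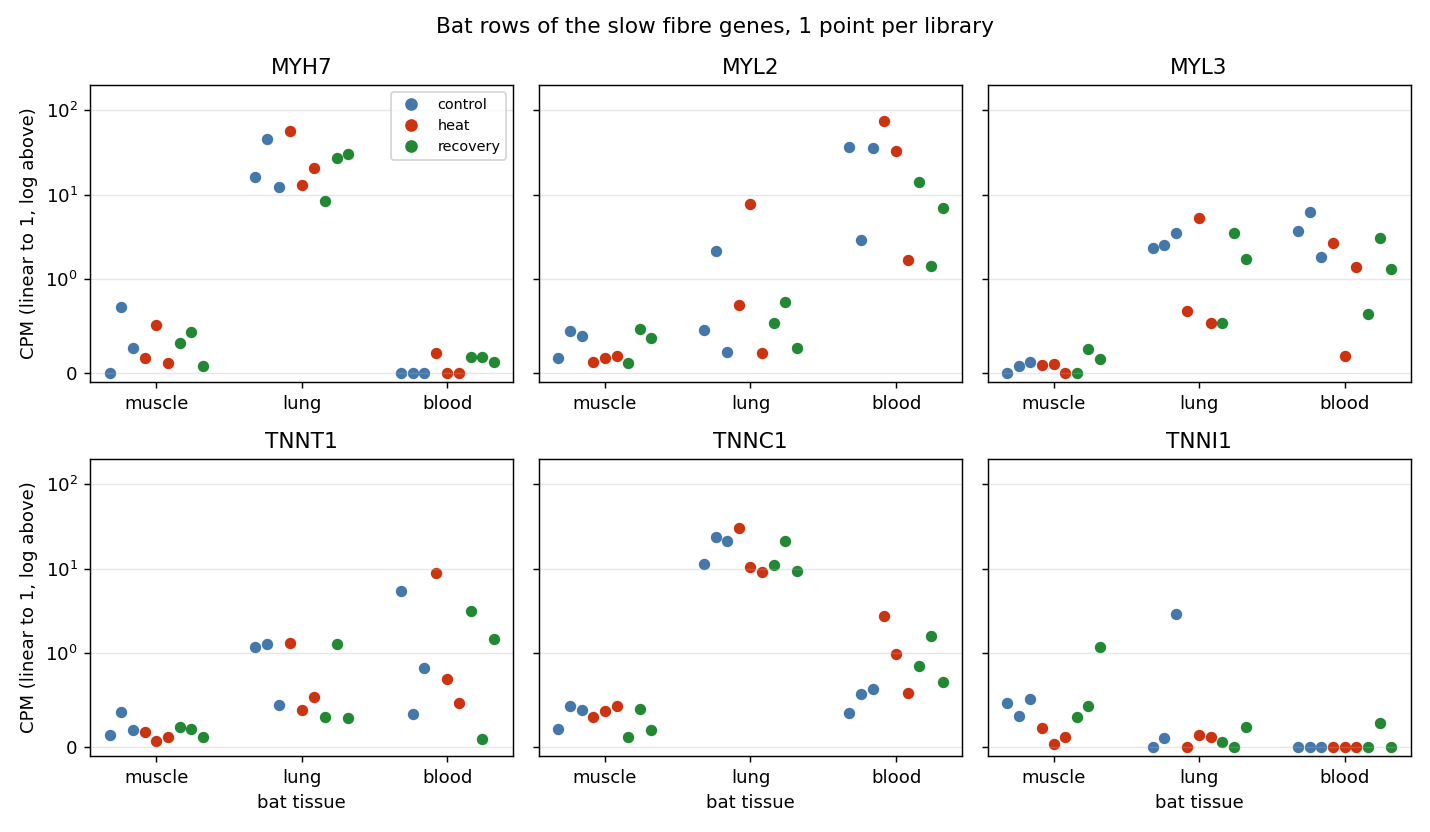
Bat rows of the 6 genes in each muscle, lung and blood library (y axis, CPM, linear up to 1 and logarithmic above; 1 point per library, coloured by condition). MYH7 and TNNC1 sit between 8.40 and 56.9 CPM in lung but below 1 CPM in muscle, and MYL2 reaches 74.5 CPM in blood.

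Outside muscle, some bat rows stood higher than in muscle itself. MYH7 ran from 8.40 to 56.9 CPM in the 9 bat lung libraries and TNNC1 from 9.19 to 30.4 CPM, and MYL2 ran from 1.42 to 74.5 CPM in bat blood, with all conditions overlapping. In mouse lung Myh7 ran from 22.8 to 39.8 CPM, beside 137 to 536 CPM of Myh6, 14.6 to 53.1 CPM of Tnnt2 and 8.34 to 29.6 CPM of Tnni3, heart markers that stayed at or under 8.45, 0.914 and 0.383 CPM in mouse muscle. In mouse blood the highest Myh7 level was 1.17 CPM. CPM was scaled within each species and tissue, so levels set across tissues are approximate.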

How the data were processed

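The authors deposited unnormalized read counts, 1 table per species, made with STAR 2.7 and featureCounts, per the submitters' processing notes. Those notes list GRCm39. The bat assembly, the featureCounts version and the strand setting are not given in the sources used here. The kit was directional, per the labels' protocols. Muscle of each species was fitted alone over its 9 libraries (26.3 to 37.2 M reads in the mouse, 24.7 to 33.3 M in the bat) with edgeR 4.0.16 (limma 3.58.1, R 4.3.3): filterByExpr with a minimum count of 10 and a minimum total of 15, TMM, robust quasi-likelihood test, Benjamini-Hochberg adjustment over all genes tested, threshold 0.05. The fit was tested on simulated counts in which every gene had the same spread. Of true log2 changes of 1 and 2, 15% and 75% were called in the mouse and 17% and 91% in the bat. Of the calls, 2.17% in the mouse and 7.69% in the bat were false. The mouse members spread far more within the heat group, so these rates do not carry over to them. The named genes were the 6 members, called members of each list up to 4, the fast partners and the 5 nearest profiles. The members and lists were chosen with earlier results of these data known. The joint fit paired the members and symbols that occur once in each table. Alternatives were DESeq2 1.42.0, its size factors, library size alone, no filter, 2 groups alone, a replicate block and each library left out. By the rule that all pairs exceed r = 0.1, replicate numbers paired the bat control and heat libraries (0.202, 0.183 and 0.168) and no other groups compared. No pair of libraries was a copy. Lung and blood were described only.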

Additional observations from a re-analysis of the deposited data

Results flagged for a closer look

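These values come from lung and blood, which the comparisons above do not use. Each is listed because every library of the tissue, untreated ones included, held more than 3 reads of the gene. Whether these levels changed with heat was not tested. In mouse lung the median was 29.9 CPM for Myh7, 5.56 CPM for Tnnc1, 3.49 CPM for Myl3 and 0.654 CPM for Tnnt1. In mouse blood it was 0.523 CPM for Tnnt1. In bat lung the median was 20.7 CPM for MYH7, 11.4 CPM for TNNC1, 2.34 CPM for MYL3 and 0.534 CPM for TNNT1. In bat blood it was 14.2 CPM for MYL2, 1.80 CPM for MYL3 and 0.695 CPM for TNNC1. Muscle groups hold 3 libraries each, too few for a check of single outlying libraries.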

How the results depend on the processing

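In 15 other settings per comparison, 0 slow fibre genes were called in either species (DESeq2 gave bat members no adjusted p at heat, and fitting 2 groups alone tested 1 to 3 bat members), and the smallest edgeR or DESeq2 adjusted p of a member was 0.205 in the mouse and 0.118 in the bat. Leaving out heat 3 turned the mouse heat changes negative. With each library left out in turn, the log2 change at heat ran from -1.85 to 2.24 for Myh7, -1.93 to 1.93 for Myl2, -0.54 to 1.34 for Myl3, -1.53 to 2.12 for Tnnt1, -1.72 to 2.21 for Tnnc1 and -1.51 to 2.26 for Tnni1. The slow myosin share at heat minus control ran from -0.204 to 0.425 points and the troponin share from -0.514 to 0.955 points. Myl3 at recovery against heat ran from -0.14 to 1.78. In the bat, with few reads, the ranges were -1.23 to 0.93 (Myh7) and -0.13 to 0.38 (Tnnc1) at heat, -0.77 to 1.02 (Myh7), -0.47 to 0.34 (Myl2) and -0.22 to 0.86 (Tnni1) at recovery, and -0.39 to 1.05 for Myh7 between them. Of the alternatives to the members' changes, 8 of 270 changed sign in the mouse and 14 of 174 in the bat. The cause was not tested.

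Library size alone moved the median of all genes to -0.429 at mouse heat, with the members' median at 1.07. Calls over all genes depended on the tool: the DESeq2 Wald test called 2607, 114 and 1211 mouse genes (edgeR 76, 12 and 83) and 855, 1639 and 211 bat genes (edgeR 6, 426 and 1), for heat against control, recovery against control and recovery against heat. Over all settings the counts ran from 0 to 2742, 0 to 114 and 0 to 1211 in the mouse and from 0 to 855, 17 to 1639 and 0 to 211 in the bat. Same-numbered mouse libraries deviated with r from -0.415 to 0.554 across genes and others from -0.577 to 0.388. In the bat all 9 same-numbered pairs were positive (0.0288 to 0.202), a hint of pairing. Of the 18 other pairs 4 were positive (-0.14 to 0.042). These pairs add no separate support, because deviations from a condition's mean cancel out within the condition. With the replicate block 0 members were called, mouse calls over all genes became 0, 2 and 8, bat calls 63, 560 and 5, and bat Myh7 at recovery moved to 0.026.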
